A study of Mus musculus with 29 samples.

Results

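Neu1 is the most numerous of the 6 neutrophil subtypes that the submitters' annotation distinguishes in mouse blood. Its members are the blood cells whose deposited parent label is neutrophil and whose subtype label is Neu1. They number 5918 of 17186 neutrophils and of 51709 blood leukocytes, in a series of 106977 annotated cells. The other subtypes hold 4698 (Neu2), 2898 (Neu3), 1617 (Neu4), 1352 (Neu5) and 703 (Neu6) cells. All 11 blood libraries came from young male C57BL/6J mice of 8 to 10 weeks, and each pooled the blood of 2 mice. Of these, 4 libraries were taken at day 2 after a sham operation, 4 at day 2 and 3 at day 14 after stroke, made by closing the middle cerebral artery for a time. There is no sham group at day 14, so a difference of day 14 from sham combines stroke with time since surgery, which cannot be told apart. Neu2 held more cells than Neu1 in each sham library, and Neu3 did so in each day 14 library. Stroke day 2 replicate 1 alone gave 2200 of the Neu1 cells. All groups share an isolation with Brilliant Blue G and actinomycin D, lysis of red cells and removal of Ter-119 positive cells. Transcripts were counted by Drop-seq, which catches single cells with barcoded beads in droplets.

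Neutrophils leave the bone marrow as granule-filled, non-dividing cells and live briefly in the blood. Their granule proteins are made in order during maturation. Azurophil granule proteins come first, then those of specific granules such as lactoferrin and cathelicidin, then those of gelatinase granules such as the gelatinase Mmp9. Transcripts of late granule genes are carried into the blood and decline as the cells age, while receptors for chemokines, formyl peptides and granulocyte colony-stimulating factor guide the mature cell into inflamed tissue. After stroke, neutrophils are among the early blood cells to respond.

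Levels are given here as CPM, the counts of a gene after the summed counts of the named subtype in a library are scaled to 1000000. The Neu1 cells of a library held 6225 to 1621932 counts in sum, and the median Neu1 cell held 328 to 1005 counts by library. All 14 genes of the neutrophil marker list were detected in Neu1, and their summed level was 177046 to 285260 CPM in sham, 154778 to 255429 CPM at day 2 and 116494 to 144226 CPM in the 2 day 14 libraries with at least 20 Neu1 cells. S100a8 and S100a9, which form the antimicrobial protein calprotectin, stood at 98470 ± 27652 and 66573 ± 20073 CPM in Neu1 (SD, n = 10 libraries). Both mark neutrophils in general and do not set Neu1 apart. Its means were the lowest of the 6 subtypes, but those of Neu3, Neu4 and Neu5 lay within its SD. For S100a8 the median over libraries was lower in Neu3 (93071 CPM) than in Neu1 (96689 CPM). Markers of other blood cells, apart from the monocyte list, were near 0 (a gene counts as 0 here under 0.5 counts over all Neu1 cells). The B cell list summed to at most 30.8 CPM in any library used, with Cd79a, Ms4a1 and Cd74 at 0. The T cell list reached 130 CPM and the NK list 84.9 CPM, both at day 14, where 1 count is worth 40.0 to 129 CPM. The monocyte list summed to 2490 to 5165 CPM against 56445 CPM in the annotated blood monocytes. Ccr2, Fn1, Ms4a4c and Ace were at 0, and other members were detected, among them Lyz2, which neutrophils also express. Csf1r stood at 78.5 to 296 CPM in the libraries with at least 20 Neu1 cells, and Ctss at 0 to 94.9 CPM. The dendritic list reached 42.5 CPM and the eosinophil list 46.9 CPM. The platelet list reached 18.4 CPM and the erythroid list 2.16 CPM. The basophil list was at 0 for all 8 genes. The deposited counts are fractional, and whether free RNA was subtracted is not known. A level of 0, here and below, therefore need not mean that no RNA was caught. In sham replicate 1 and stroke day 2 replicate 1 the median mitochondrial share of Neu1 cells was 0.0849% and 0.0598%, against 0.574% to 2.08% in the other libraries. Of all blood cells, 173 carry a 12-base barcode that a second blood library also holds, and 26 of these are Neu1.

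Neu1 differed from Neu2, the subtype nearest to it in number, by less RNA of granule genes such as Ngp and Mmp8 and by more RNA of genes such as Il1b, Il1rap and Tagln2. Because the subtypes were defined on the expression of the same cells, the differences are described within libraries, without a test, on the log2(CPM + 10) scale. Of 1428 genes of at least 100 CPM in either subtype, 213 (14.9%) were higher and 58 (4.06%) lower in Neu1 in every one of the 9 libraries with 20 cells of both. Neu1 held less Ngp, encoding neutrophilic granule protein, at 97.0 ± 81.9 CPM against 618 ± 665 CPM (mean log2 difference -2.40, range -4.64 to -1.32). Mmp8, the neutrophil collagenase, stood at 1425 ± 614 CPM in Neu1 and 4157 ± 1178 CPM in Neu2 (-1.62, range -3.28 to -0.82). Each of these genes was lower in Neu1 in all 9 libraries.

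The next genes belong to the specific and gelatinase granule lists used here, the latter of which includes Mmp8 and Ly6g. Retnlg, a resistin-like secreted protein, was lower in Neu1 by a mean of -1.09. Ly6g, the surface protein used to identify mouse neutrophils, was lower by -1.17 and Lcn2, which binds bacterial siderophores, by -0.83. All were lower in 9 of 9 libraries. Cd177, a neutrophil surface glycoprotein, was lower in 8 of 9 (-1.58). Of the 9 specific granule genes that reached 20 CPM in either subtype, 8 were lower on average and 3 in every library. Of 9 gelatinase granule genes, 5 were lower on average, 3 of them in every library, while Slpi, a protease inhibitor, and Itgb2, an integrin chain, were higher in every library by 0.30 and 0.27. The primary granule genes Mpo, Elane and Ctsg were at 0 CPM in Neu1 in every library, while Prtn3, encoding proteinase 3, was detected in 5 libraries at no more than 9.77 CPM. The oxidase chain gene Cybb was lower by -1.50 and its partner Ncf1 by -0.55, in 9 of 9 libraries each. Other genes with a large deficit were Zdhhc3 (-1.83), Ly6c2 (-1.77), Ceacam10 (-1.74), Adpgk (-1.73), Ifitm6 (-1.70), Ckap4 (-1.37), Ccdc125 (-1.35) and Fam117b (-1.28), each lower in all 9 libraries. Prok2, a chemokine-like secreted protein, was lower in 8 and equal in 1 (-1.72).

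The genes with the highest excess in Neu1 over Neu2 included Il1b and a chain of its receptor. Il1b, the inflammatory cytokine itself, stood at 7309 ± 1377 CPM in Neu1 and 3544 ± 1423 CPM in Neu2 (mean log2 difference 1.15, range 0.49 to 2.80). Il1rap, the accessory chain of its receptor, stood at 532 ± 170 against 146 ± 96.9 CPM (2.03, range 0.69 to 3.23). The top gene was Tagln2, which encodes an actin-binding protein, at 424 ± 147 against 81.3 ± 53.2 CPM (2.57, range 1.39 to 5.00). Igfbp6, a binding protein of insulin-like growth factors, was higher by 1.83, Gbp2, an interferon-induced GTPase, by 1.72, Fgl2, a fibrinogen-like protein, by 1.45 and Cd14, the co-receptor for lipopolysaccharide, by 1.32. Arl13b (1.44), Kif23 (1.26), the transcription factor Ets2 (1.21), the metalloreductase Steap4 (1.08) and Dennd4a (1.07) complete the 12 genes with the highest excess. All 12 were higher in 9 of 9 libraries. Not every difference from Neu2 was particular to Neu1. Over libraries with at least 20 cells, Ly6g averaged 279 CPM in Neu1, 280 CPM in Neu3 and 335 CPM in Neu5. In the same order, Lcn2 averaged 2783, 2883 and 3003 CPM and Il1b 7434, 6089 and 5934 CPM. Mmp8 (1295, 2052 and 2036 CPM) and Tagln2 (400, 91.6 and 165 CPM) differed more.

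The gene lists are read beside a median log2 difference of 0.16 over all 1428 genes, of which 14.9% were higher in every library. All 11 early response genes that reached 20 CPM were higher on average in Neu1 than in Neu2, 7 of them in every library, with a median log2 difference of 0.48. They included Junb (0.51), Fos (0.39), Zfp36 (0.47), Klf6 (0.49) and Dusp1 (0.62). Of 14 receptor and adhesion genes, 12 were higher and 5 were so in every library, among them Csf3r, the receptor for granulocyte colony-stimulating factor (0.65), Cxcr2, the main chemokine receptor of blood neutrophils (0.20), and Selplg, a ligand of selectins (0.45). The 2 that were lower on average are the formyl peptide receptors Fpr1, in all 9 libraries (-0.46), and Fpr2, in 8 of 9 (-0.50). All 9 class I presentation genes were higher on average, 2 of them in every library, with B2m at 0.57. Of 12 glycolysis genes, 10 were lower on average with a median of -0.23, while in every library 1 (Hk3) was lower and 1 (Pfkfb4) higher. S100a8 and S100a9 were lower in Neu1 in 9 of 9 libraries by -0.46 and -0.38, and of the 8 calgranulin and alarmin genes 5 were lower on average. Of 8 mature activation genes 7 were higher on average with a median of 0.39, but only 1 of the 8 was higher in every library. Of 8 glucocorticoid-responsive genes 7 were higher on average with a median of 0.34, and 2 in every library. Of 6 oxidase genes, 5 were lower with a median of -0.02. The interferon response list (7 of 13 higher, median 0.04) and the survival list (4 of 7, median 0.05) were split. The plot of differences between Neu1 and Neu2 shows the 24 genes with their ranges.

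**Figure D1:**
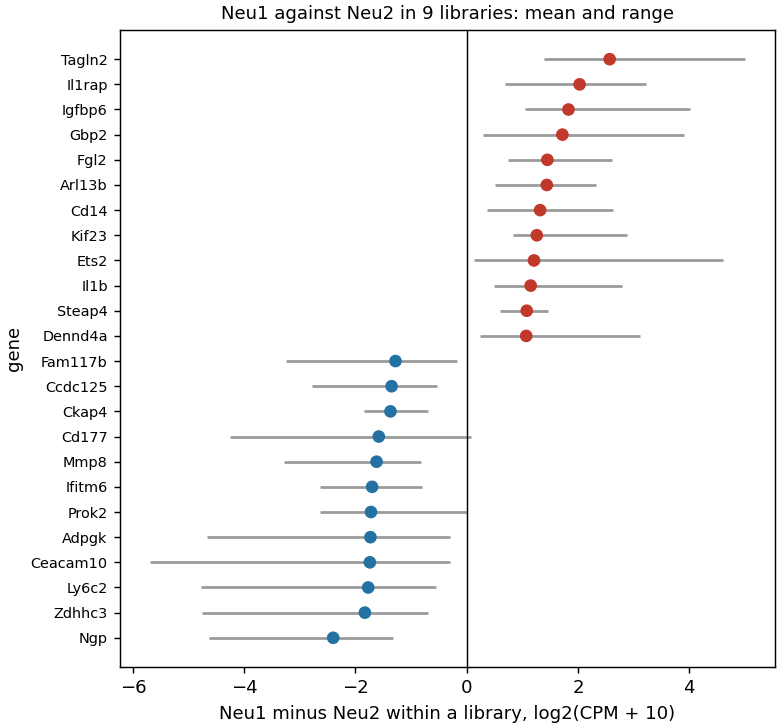
Difference of Neu1 from Neu2 within a library, in log2(CPM + 10) units on the x axis, for the 12 genes with the lowest and the 12 with the highest mean difference on the y axis. Points are means over 9 libraries and lines run from the lowest to the highest library; Ngp has the lowest mean (-2.40) and Tagln2 the highest (2.57).

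The stretches just before the annotated start of 4 of these genes are shown, because Ngp and Mmp8 are granule genes with less RNA in Neu1 and Il1b and Tagln2 have more. Each gives the 150 bases up to the base before the start, from RefSeq on GRCm38.p6, 5′ to 3′ on the gene's strand. Capitals mark matches, on either strand, to a C/EBP motif (TTNNGCAA), an AP-1 motif (TGANTCA) or a TATA motif (TATAAA). The stretch of Ngp is chr9:110419658-110419807 on the plus strand and that of Mmp8 chr9:7558279-7558428 on the plus strand. The stretch of Il1b is chr2:129371140-129371289 on the minus strand and that of Tagln2 chr1:172500096-172500245 on the plus strand.
Ngp: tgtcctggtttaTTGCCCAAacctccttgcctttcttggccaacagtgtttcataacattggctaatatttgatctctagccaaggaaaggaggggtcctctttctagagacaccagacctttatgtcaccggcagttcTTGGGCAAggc
Mmp8: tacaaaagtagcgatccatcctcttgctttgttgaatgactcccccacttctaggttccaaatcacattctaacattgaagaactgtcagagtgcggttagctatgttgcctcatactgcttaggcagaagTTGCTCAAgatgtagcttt
Il1b: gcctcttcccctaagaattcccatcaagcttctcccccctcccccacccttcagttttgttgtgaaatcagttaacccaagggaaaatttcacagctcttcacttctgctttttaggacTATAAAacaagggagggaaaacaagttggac
Tagln2: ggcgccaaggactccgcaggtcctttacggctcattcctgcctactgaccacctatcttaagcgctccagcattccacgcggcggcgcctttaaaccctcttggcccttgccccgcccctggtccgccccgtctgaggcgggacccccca
The Ngp stretch holds 2 C/EBP matches, at -138 and -11 from the start, and the Mmp8 stretch holds 1, at -19. The Il1b stretch holds a TATA match at -31, and the Tagln2 stretch holds none of the 3 motifs. Over the 250 bases before the start, the C/EBP motif was found in 2 of the 12 genes lowest in Neu1 against Neu2 (Mmp8 and Ngp) and in 1 of the 11 matched genes highest in Neu1 (Steap4), against 9.56% of 32851 promoters. The AP-1 motif was found in 1 and 2 of them against 6.75% of all promoters, and the TATA motif in 3 and 3 against 12.4%. A gene with more than 1 promoter counts if any of them matches, while the percentages are over single promoters. A match is a description of the letters and does not show binding.

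Against Neu3, the subtype that held most day 14 neutrophils, Neu1 held more of Arl13b, Tagln2 and Cd14 and less of Ceacam10 and Aldh2. Of 1524 genes, 33 (2.17%) were higher and 28 (1.84%) lower in Neu1 in all 8 libraries compared. With cells of at least 500 counts the numbers were 138 and 94, over 5 libraries. Arl13b, a small GTPase, stood at 111 ± 52.4 against 15.5 ± 12.4 CPM (mean log2 difference 2.33, range 1.49 to 3.41). Tagln2 stood at 408 ± 175 against 91.6 ± 71.8 CPM (2.26, range 0.84 to 4.22). Igfbp6 (1.92, higher in 7 of 8 libraries), Gbp2 (1.80), Cd14 (1.63), Id1 (1.60, in 7 of 8), Steap4 (1.52), Klhdc4 (1.43), Wfdc17 (1.42), Il1rap (1.39), the intermediate filament gene Vim (1.29) and Ifitm1 (1.24) follow.

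The genes lowest in Neu1 against Neu3 were Ceacam10, a carcinoembryonic antigen family member, at 40.0 ± 26.9 against 161 ± 41.5 CPM (-2.08, range -4.01 to -1.05), and Marcksl1 (-1.78), Aldh2 (-1.62) and Acsl1 (-1.47). Ngp was lower by -1.40 in all 8 libraries. Clec5a (-1.36), Abcd2 (-1.35), Tecr (-1.29), Ly6c2 (-1.29), Ifi27l2a (-1.26), Nampt (-1.24) and Mindy1 (-1.24) complete the 12, of which Abcd2, Ly6c2, Nampt and Mindy1 were not lower in every library. Of 12 glycolysis genes, 10 were lower on average in Neu1 than in Neu3, with a median of -0.47, but 0 were lower in every library. The median over all 1524 genes was -0.02.

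Neu1 held little RNA of the genes that mark the smaller subtypes. Stfa2, one of the stefins that inhibit cysteine proteases, stood at 19.6 ± 18.0 CPM in Neu1 and 1513 ± 467 CPM in Neu4 (-5.92, range -7.63 to -4.70, 9 libraries). Stfa1 was lower by -5.53 and Stfa3 by -4.48. Of 1455 genes, 87 (5.98%) were higher and 28 (1.92%) lower in Neu1 than in Neu4 in every library. Against Neu5, Rsad2, the antiviral protein viperin, stood at 16.2 ± 11 against 933 ± 515 CPM (-5.16, range -7.66 to -3.89, 10 libraries). Ifit3, an interferon-induced gene, was at 0 CPM in Neu1 in all 10 libraries and at 368 ± 291 CPM in Neu5. Isg15, a ubiquitin-like modifier induced by interferon, was lower by -3.46. Of the 19 interferon response genes that reached 20 CPM, 17 were lower on average and 14 lower in every library, with a median of -2.16. The total was 17 of 1533 genes higher (1.11%) and 53 lower (3.46%) in every library.

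Neu6 stood farthest from Neu1. Ngp stood at 117 ± 81.0 CPM in Neu1 and 21132 ± 17640 CPM in Neu6 (-6.93, range -8.89 to -5.00, 7 libraries). Camp, the cathelicidin precursor, was lower by -6.80 and Ltf, lactoferrin, by -6.57, both in 6 of 7 libraries. Serpinb1a, an inhibitor of neutrophil proteases, was lower by -4.78 and Cybb by -4.58 in all 7. Il1b, in contrast, stood at 6945 ± 1310 CPM in Neu1 and 1139 ± 1266 CPM in Neu6 (4.38). Ifitm1 (4.25), Wfdc17 (3.59), Clec7a, the receptor for fungal glucans (3.56), and Socs3, a feedback inhibitor of cytokine signalling (3.39), were also higher in all 7. Of 1526 genes, 381 (25.0%) were higher and 94 (6.16%) lower in Neu1 in every library. Across the genes compared, Pearson's r of mean log2 levels in Neu1 and the other subtype was 0.956 for Neu2 and Neu3, 0.931 for Neu4, 0.912 for Neu5 and 0.711 for Neu6. These are correlations across genes of cells from the same libraries, and genes are not independent replicates.

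**Figure D2:**
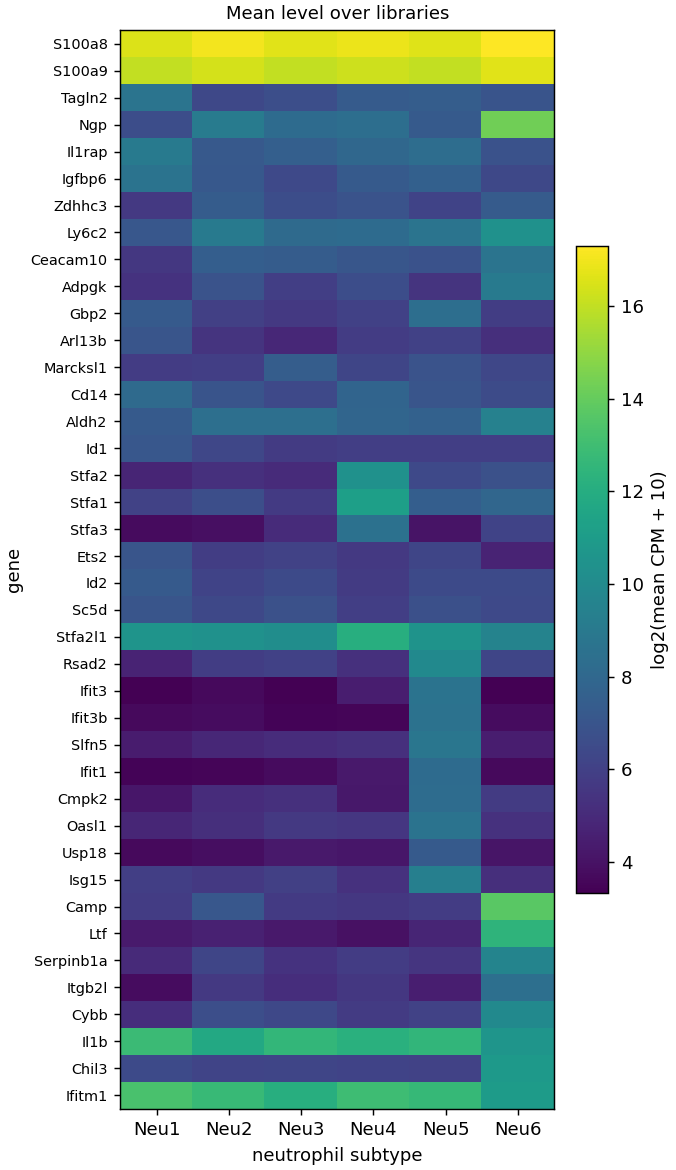
Mean level over libraries with at least 20 cells, as log2(mean CPM + 10) in colour, for S100a8, S100a9 and genes with the largest differences of Neu1 from each subtype (rows) in Neu1 to Neu6 (columns). Tagln2, Il1rap and Igfbp6 are highest in Neu1 (400, 530 and 386 CPM), Stfa2 in Neu4 (1362 CPM), Rsad2 in Neu5 (993 CPM), and Ngp in Neu6 (19939 CPM).

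The share of Neu1 among neutrophils was higher on average at day 2 after stroke than in sham, and low at day 14. In sham, Neu1 made up 26.8%, 40.4%, 30.3% and 21.4% of neutrophils in replicates 1 to 4 (mean 29.7% ± 8.00, SD, n = 4). At day 2 after stroke it made up 55.4%, 53.4%, 45.0% and 34% (47.0% ± 9.75, n = 4). The groups overlap: stroke day 2 replicate 4 lies below sham replicate 2. The difference of 17.3 points gave an exact two-sided permutation p of 0.0571, where the smallest p this design allows is 0.0286. It is the only pair of groups tested for this share. As a share of all leukocytes, Neu1 made up 9.53%, 10.5%, 14.7% and 2.65% in sham and 38.6%, 29.7%, 5.27% and 18.5% at day 2 after stroke (exact p = 0.171). Without both libraries of low mitochondrial share, an alternative chosen after seeing the data, the difference in the share of neutrophils was 13.5 points (exact p = 0.2). A set of 81 genes holds those with the highest or lowest mean differences of Neu1 from any single other subtype. Its members need not set Neu1 apart from every subtype. Stfa2, for example, averaged 17.7 CPM in Neu1, 28.0 CPM in Neu2, 22.9 CPM in Neu3 and 1362 CPM in Neu4. None of the 81 was called between day 2 and sham over all neutrophils. In that fit 0 of 4944 genes (0%) were called by edgeR and 209 had an unadjusted p under 0.05.

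At day 14 Neu1 made up 1.30% (17 of 1306 cells), 4.95% (55 of 1110) and 4.35% (22 of 506) of neutrophils, all below the lowest sham and day 2 libraries. The exact Clopper-Pearson 95% intervals were 0.760% to 2.08%, 3.75% to 6.40% and 2.74% to 6.51%, which cover counting error only. As a share of all leukocytes it was 0.272%, 1.11% and 0.495%. In the same libraries, Neu3 made up 73.8% ± 9.20 of neutrophils (SD, n = 3), against 3.20%, 0.967%, 4.0% and 32.2% in sham replicates 1 to 4 and 5.79% ± 4.02 at day 2 (n = 4). Sham replicate 4 thus stands far above the other sham libraries. Neu2 and Neu4 were also low at day 14. Neu2 made up a mean of 38.0% of neutrophils in sham, 27.4% at day 2 and 4.45% at day 14, and Neu4 9.79%, 10.3% and 1.49%. In the same order, Neu5 made up 9.47%, 5.92% and 11.2% and Neu6 2.95%, 3.61% and 5.51%. These shares are given without a test, because subtype labels follow gene levels that differed between the groups. Over all neutrophils 296 of 4944 genes (5.99%) were called between day 14 and sham, and 18 of the 81 genes are among them. Of these 18, Tagln2, Il1rap, Igfbp6, Cd14, Steap4, Ifitm1, Wfdc17, Vim and Klhdc4 were given above as higher in Neu1 than another subtype. Ifitm6, Prok2, Nampt, Stfa1, Stfa2 and Stfa3 were given as lower in Neu1. Cmpk2, Slfn8 and Stfa2l1 complete the 18. Between day 14 and day 2, 232 genes (4.69%) were called and 21 of the 81 were among them. The median neutrophil held 345, 452 and 391 counts at day 14, against 414 to 901 in sham and 352 to 658 at day 2.

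**Figure D3:**
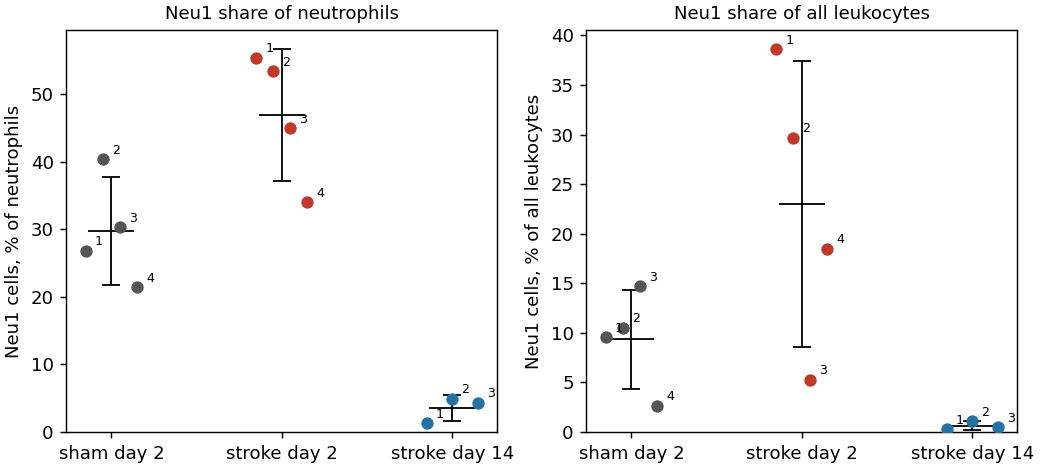
Neu1 cells as a percentage of neutrophils (left) and of all leukocytes (right) in each library, numbered by replicate, with mean and SD per group. The 3 day 14 libraries sit at 1.30% to 4.95% of neutrophils, below every sham (21.4% to 40.4%) and stroke day 2 library (34% to 55.4%).

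Within Neu1, expression at day 2 after stroke was compared with sham to ask what the acute phase changes in this subtype. None of 3373 genes tested (0%) was called at an adjusted p under 0.05 by edgeR's quasi-likelihood test. DESeq2 called 0, and 151 and 83 genes were under 0.05 before adjustment in the 2 tools. S100a8 stood at 149131, 96521, 104291 and 88829 CPM in sham and at 130235, 75607, 96857 and 113416 CPM at day 2 (log2 fold change -0.08 ± 0.32, SE). S100a9 stood at 101768, 58935, 72168 and 65288 CPM in sham and at 96716, 48097, 56193 and 74673 CPM at day 2 (-0.11 ± 0.33). The groups overlap for both genes, and replicate 1 is the highest of its group in each. Il1b stood at 5994, 8217, 7157 and 7984 CPM in sham and 5721, 9177, 8258 and 5167 CPM at day 2, and these also overlap (-0.08 ± 0.24).

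The 5 genes with the smallest p among those with no overlap between the groups are given as values, since none passed the adjusted threshold. Of these 5, G0s2 passed with no filter on low counts (edgeR adjusted p = 0.0273), and no other passed in an edgeR or DESeq2 fit without a replicate block. Dgat2, which makes triglycerides, stood at 90.6, 138, 121 and 80.6 CPM in sham and at 254, 320, 176 and 166 CPM at day 2 (log2 fold change 1.06 ± 0.25, SE, edgeR adjusted p = 0.531). Jaml, an adhesion molecule of leukocytes that cross epithelia, stood at 295, 491, 546 and 543 CPM in sham and at 659, 1249, 852 and 850 CPM at day 2 (0.95 ± 0.23, adjusted p = 0.531 by edgeR). In both, every stroke library lies above every sham library. G0s2, an inhibitor of triglyceride breakdown, stood at 340, 220, 875 and 342 CPM in sham and at 206, 174, 168 and 212 CPM at day 2 (-1.23 ± 0.35, edgeR adjusted p = 0.733). Its sham values are spread widely, with replicate 3 far above the others. Nufip2, an RNA-binding protein, had a log2 fold change of 0.74 ± 0.23 and E2f2, a transcription factor of the cell cycle, of -1.11 ± 0.36 (edgeR adjusted p = 0.756 and 0.788).

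None of the listed genes was called at day 2, and the lists are described by the sign of their members' fold changes beside a median of 0 over all 3373 genes. All 8 tested genes of the mature activation list were above 0, with a median of 0.26. Nfkbia, the NF-kappaB inhibitor, stood at 496, 488, 412 and 248 CPM in sham and at 894, 1551, 438 and 644 CPM at day 2 (1.00 ± 0.29, edgeR adjusted p = 0.733). Day 2 replicate 3 lies within the sham range, so the groups overlap. Of 11 early response genes, 10 were above 0 with a median of 0.29, led by Jun (1.15 ± 0.41). Of 7 glucocorticoid-responsive genes, 6 were above 0 with a median of 0.45. Tsc22d3, which encodes the glucocorticoid-induced leucine zipper, stood at 381, 490, 318 and 375 CPM in sham and at 818, 1139, 365 and 662 CPM at day 2 (0.93 ± 0.26, edgeR adjusted p = 0.733). Fkbp5, a co-chaperone of the glucocorticoid receptor, had 1.25 ± 0.40. For Nfkbia, Tsc22d3 and Jun, replicate 2 was the highest of the stroke libraries.

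Among receptors, 9 of 14 genes were above 0 with a median of 0.07. Il1r2, the decoy receptor of interleukin 1, stood at 658, 438, 728 and 484 CPM in sham and at 1531, 2012, 442 and 1363 CPM at day 2 (1.17 ± 0.31, edgeR adjusted p = 0.733). In 3 of the 4 stroke libraries it lies above all sham libraries, and in replicate 3 it does not. Cxcr2 (0.16 ± 0.24) and Csf3r (-0.07 ± 0.21) had fold changes smaller than their SE. Of 9 specific granule genes, 4 were above 0, with a median of -0.2 and a range of -0.67 to 2.94. Chil3, a chitinase-like protein, stood at 39.3, 16.0, 16.1 and 63.6 CPM in sham and at 13.7, 297, 104 and 159 CPM at day 2 (2.03 ± 0.60, edgeR adjusted p = 0.756), and the low day 2 value is replicate 1. All 8 calgranulin and alarmin genes were below 0 with a median of -0.11, the lowest being S100a6 (-0.27 ± 0.31). Of 10 glycolysis genes, 8 were below 0 with a median of -0.22, and of 10 interferon response genes, 8 with a median of -0.05. Of 9 gelatinase granule, 9 class I presentation, 7 survival and 6 oxidase genes, 4, 4, 3 and 2 were above 0, with medians of -0.01, -0.02, -0.05 and -0.16. No azurophil or cell cycle gene was abundant enough to be tested.

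**Figure D4:**
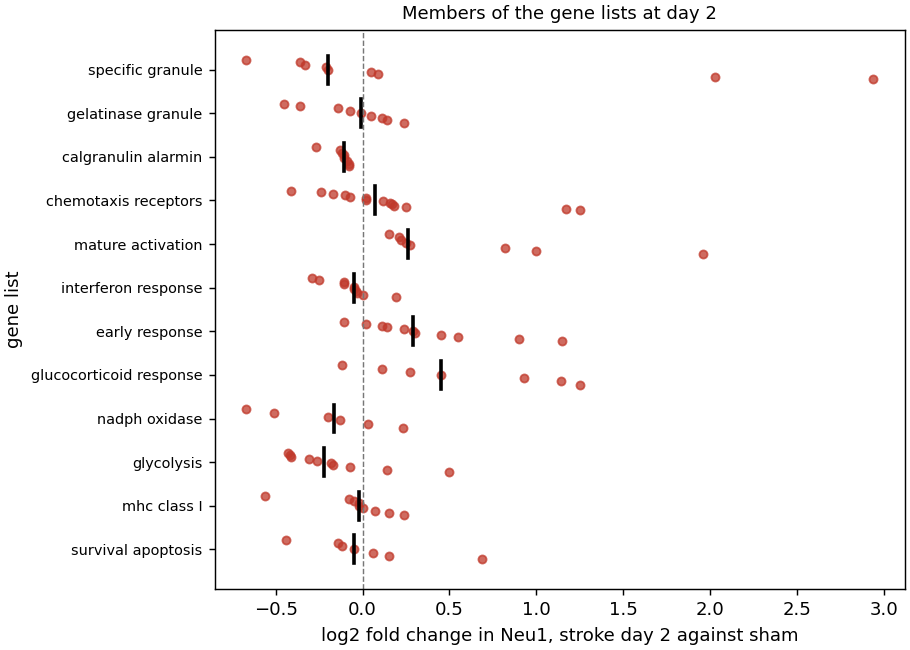
Log2 fold changes in Neu1 at day 2 after stroke against sham (x axis) for the tested members of each gene list (y axis); points are genes and bars are list medians. The glucocorticoid-responsive list has the highest median (0.45) and the glycolysis list the lowest (-0.22), and no gene shown was called.

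At day 14, Neu1 was rare, so only replicates 2 and 3, with 55 and 22 Neu1 cells and 24996 and 7768 counts, entered the fit; replicate 1 had 17 cells and is shown by its values alone. Of 3373 genes, 1 (0.0296%) was called against sham by edgeR; 395 were under 0.05 before adjustment. DESeq2 called 48 against sham and 40 against day 2. Leaving out 1 library at a time gave 0 to 10 genes against sham and 0 to 11 against day 2. Fold changes at day 14 depend on scaling: the median over all genes was -0.31 with TMM and 0.25 with library size alone. They also depend on the library: without day 14 replicate 2 that median was -2.83 against sham and -2.86 against day 2.

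The called gene was Wfdc17, a small secreted protein with a WAP domain that is abundant in neutrophils. It stood at 21743, 15589, 14503 and 14442 CPM in sham, at 21971, 11249, 15090 and 15357 CPM at day 2 and at 7660, 3182 and 2407 CPM at day 14. All 3 day 14 libraries lie below all other libraries. Wfdc17 fell by 3.12 ± 0.45 on the log2 scale against sham (SE, edgeR adjusted p = 0.0012), and the day 14 to day 2 comparison gave -3.07 ± 0.45 (edgeR adjusted p = 0.00152), again the only called gene of 3373 (0.0296%). With library size alone the fold changes were -2.54 and -2.48, and Wfdc17 was still called. Without replicate 3 of day 14, which leaves that group with 1 library, no gene was called in either comparison, and the fold changes of Wfdc17 were -3.02 and -3.0. Under the 17 alternatives that keep both day 14 libraries, Wfdc17 was called in each, in both comparisons. Wfdc17 is also one of the genes that set Neu1 apart from Neu3 and that differed between day 14 and sham over all neutrophils.

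Other genes with the smallest p had lower means at day 14 and did not pass the adjusted threshold. Ifitm1, an interferon-induced membrane protein, stood at 14370, 10382, 12464 and 12321 CPM in sham, at 16601, 7028, 8991 and 12396 CPM at day 2 and at 5350, 4406 and 2163 CPM at day 14 (-2.41 ± 0.47 against sham, edgeR adjusted p = 0.0508). It passed under 15 of the 17 alternatives that keep both day 14 libraries. Retnlg stood at 16571, 10650, 15131 and 10500 CPM in sham, at 11682, 12613, 13923 and 19923 CPM at day 2 and at 4889, 5855 and 4212 CPM at day 14 (-1.97 ± 0.41, edgeR adjusted p = 0.073). It passed under 9 of those 17 alternatives. The day 14 values of both genes do not overlap those of the other groups. Ctsb, the lysosomal protease cathepsin B, had -3.04 ± 0.66 and Tspo, a protein of the outer mitochondrial membrane, -2.85 ± 0.62 (edgeR adjusted p = 0.073 each). In day 14 replicates 2 and 3, Ctsb stood at 58.1 and 108 CPM and Tspo at 347 and 175 CPM. There 1 count is worth 40.0 and 129 CPM, so these levels rest on few counts. Tspo overlaps sham when replicate 1 of day 14, with 1094 CPM, is counted, since the lowest sham library held 1074 CPM. Against day 2, Retnlg had -2.08 and Ifitm1 -2.29 (edgeR adjusted p = 0.0582 each), and Wfdc21 had -2.03 ± 0.45 (edgeR adjusted p = 0.0873). DESeq2 called Ifitm1, Retnlg and Tspo against sham and Ifitm1, Retnlg and Wfdc21 against day 2.

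The 2 calprotectin genes were lower on average at day 14 than in the other groups. S100a8 stood at 67314, 74214 and 55594 CPM, with all 3 libraries below the lowest sham and day 2 values. S100a9 stood at 40905, 49266 and 42627 CPM, with replicate 2 just above the lowest day 2 library. Il1b stood at 10044, 8103 and 8567 CPM, which without TMM scaling is within or above the range of the other groups. With TMM its fold change was below 0 against both sham and day 2, so the direction for Il1b depends on the scaling. Mmp8 stood at 158, 554 and 128 CPM at day 14 against 2439, 1570, 1226 and 545 CPM in sham, where the groups overlap by sham replicate 4. Fgl2 stood at 1395, 2484 and 2557 CPM against 589, 1223, 792 and 1449 CPM in sham, where replicate 1 of day 14 lies within the sham range. Jaml, listed above for day 2, stood at 947, 1715 and 1663 CPM at day 14, above every sham library. Igfbp6 was at 0 CPM in day 14 replicate 3, where 3 counts correspond to 386 CPM. No listed gene was called at day 14 against sham, and the signs of the lists moved with the scaling. With TMM, 0 of 8 calgranulin and alarmin, 0 of 10 glycolysis, 1 of 10 interferon response, 2 of 9 specific granule and 2 of 9 gelatinase granule genes were above 0. Without TMM these numbers were 3, 1, 4, 2 and 4. Early response genes were above 0 in 5 of 11 with TMM and 10 of 11 without, with medians of -0.06 and 0.56 beside -0.31 and 0.25 over all genes. Class I presentation genes were above 0 in 4 of 9 and 6 of 9, and glucocorticoid-responsive genes in 3 of 7 and 6 of 7. For receptors the numbers were 3 and 8 of 14, for mature activation 3 and 5 of 8, for survival 3 and 5 of 7 and for the oxidase 1 and 3 of 6.

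**Figure D5:**
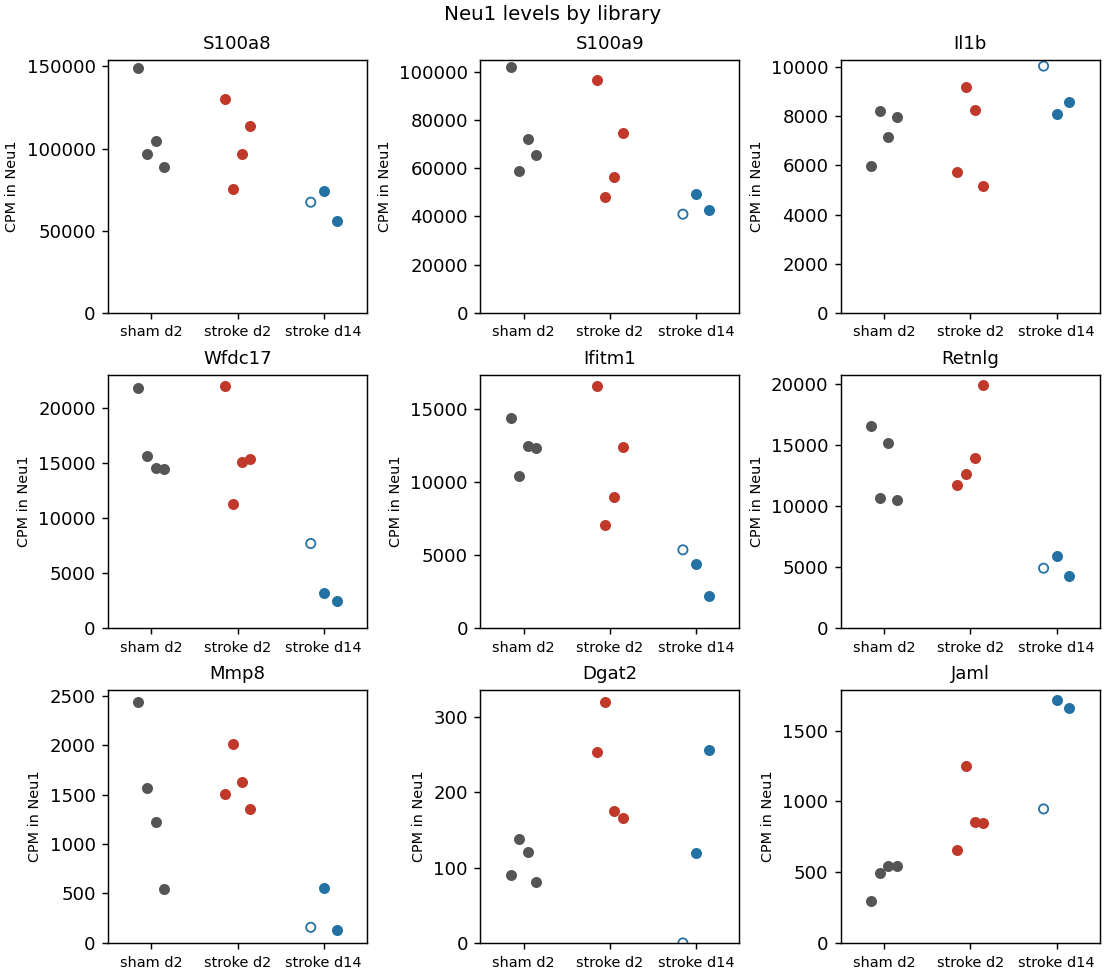
CPM in Neu1 (y axis, from 0) of 9 genes in each library of sham day 2, stroke day 2 and stroke day 14; each point is a library, and the open point is day 14 replicate 1 with 17 Neu1 cells. Wfdc17, Ifitm1 and Retnlg lie lower in all 3 day 14 libraries than in any other, and Dgat2 and Jaml lie higher in all 4 stroke day 2 libraries than in sham.

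Whether the change between groups differed between Neu1 and other subtypes was tested with each library as a block. At day 2 against sham, 0 of 5027 genes (0%) differed between Neu1 and Neu2 by edgeR, with 205 at an unadjusted p under 0.05 and 0 by DESeq2. Against Neu3, 0 of 3043 genes (0%) differed at day 2 (144 unadjusted, 0 by DESeq2) and 0 (0%) at day 14 (213 unadjusted, 0 by DESeq2), with 3 sham, 3 day 2 and 2 day 14 libraries. For the day 14 change against sham in Neu1 and Neu2, only day 14 replicate 2 held enough cells of both. The fit called 11 of 5027 genes (0.219%), 5 with a higher and 6 with a lower change in Neu1; 311 were under 0.05 before adjustment and DESeq2 called 12. It assumes that this lone library varies like those of the other groups, so its calls do not measure the spread between day 14 libraries. With library size alone as scaling it called 0 genes. The values below therefore describe this library, and no difference between the subtypes at day 14 is drawn from them.

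In that day 14 library, Il1b stood at 8103 CPM in Neu1 and 1153 CPM in Neu2, against means of 7338 and 4151 CPM in sham. Ifitm1 stood at 4406 and 771 CPM, against 12384 and 8173 CPM in sham. Retnlg stood at 5855 and 28186 CPM, against 13213 and 26227 CPM in sham. S100a9 stood at 49266 and 98869 CPM, against 74540 and 90102 CPM in sham. Il1b and Ifitm1 were higher, and Retnlg and S100a9 lower, in Neu1 than in Neu2 in each of the 9 libraries compared.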

How the data were processed

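The deposited tables hold expected counts per gene and cell for 16623 genes, and 0.00866% to 0.128% of the non-zero values are whole by library. How the authors made the counts fractional, and whether free RNA was subtracted, is not given in the sources used here; mm10 and Seurat are named per the submitters' processing notes, without a role. The authors' metadata give subtype labels, counts of detected genes and the percent of mitochondrial counts per cell. No deposited cell was left out. Scrublet (scanpy 1.11.5) marked 0.0636% to 0.411% of cells per library. Whether it failed or few doublets were present was not tested, so doublets may remain.

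Counts were summed over the cells of a subtype in each library with at least 20 such cells, rounded, and fitted with edgeR 4.0.16 (quasi-likelihood, TMM, filterByExpr, 3 groups in 1 fit), with Benjamini-Hochberg adjustment over all genes tested and calls at an adjusted p under 0.05. The fits were tested on simulated data, where they found few of the changes made at day 14. Printed CPM are not TMM-scaled. DESeq2 1.42.0 and the other alternatives are in the closing section. The labels name no batch, and p-values measure the spread between pools of 2 mice.

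Named genes of a comparison over libraries were the called ones, or the 5 with the smallest p where fewer than 5 were called. They had at least 20 CPM and no overlap of groups. Predicted, mitochondrial, ribosomal, haemoglobin, T cell receptor and immunoglobulin genes were passed over, as were genes over 10 times higher in some other blood type (500 cells or more). Between subtypes they were the 12 highest and 12 lowest mean differences among genes of at least 100 CPM, and list members. Members and lists were chosen with earlier results of these data known. The 18 brain libraries were not used here.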

Additional observations from a re-analysis of the deposited data

Results flagged for a closer look

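In 40 groups of 4 libraries examined for a value far from the others, 2 stood out, as many as the 1 in 20 that chance gives. Ngp in Neu1 of stroke day 2 replicate 4 was at 247 CPM, and the next highest day 2 library was at 60.4 CPM. Wfdc17 in Neu1 of sham replicate 1 was at 21743 CPM, and the next highest sham library was at 15589 CPM.

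The interaction fit of edgeR called 11 genes for a difference between Neu1 and Neu2 in the day 14 change against sham. The fit had 1 day 14 library, so the calls do not measure the spread between day 14 libraries. The differences of log2 fold changes (Neu1 minus Neu2) were -2.17 for Mmp8, -1.52 for Retnlg, -1.42 for Lyz2, -1.35 for Wfdc21, -0.94 for S100a9 and -0.74 for S100a8. They were 1.22 for Lrg1, 1.30 for Wfdc17, 1.46 for Ifitm2, 1.68 for Il1b and 1.69 for Ifitm1. All 11 kept their direction with library sizes alone, and none passed the threshold there.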

How the results depend on the processing

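The day 14 fits rest on libraries of 55 and 22 Neu1 cells, and 1 count there is worth 40.0 CPM or more, so genes of low level cannot be judged. The cause of each change below was not tested.

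Genes called in Neu1 at day 2 against sham (0) were 9 with no filter on low counts, 1 without both libraries of low mitochondrial share (chosen after seeing the data), and 0 to 2 leaving out 1 library (2 without day 2 replicate 1). Against sham, the 1 gene called at day 14 became 48 with DESeq2, 20 with no filter, 3 each with library size alone, with counts rounded up, with only the compared groups and without both libraries of low mitochondrial share, 11 with libraries of at least 15 Neu1 cells (chosen after seeing the data), 0 with at least 50, and 0 (without day 14 replicate 3) to 10 (without sham replicate 4) leaving out 1 library. Against day 2, the 1 gene became 40 with DESeq2, 39 with no filter, 3 with library size alone and with counts rounded up, 2 with only the compared groups, 6 without both libraries, 15 with at least 15 cells, 0 with at least 50, and 0 (without day 14 replicate 3) to 11 (without day 2 replicate 3) leaving out 1 library. With at least 50 cells, the same fit as without day 14 replicate 3, the fold changes of Wfdc17 were -3.02 and -3.0 and its call was lost (adjusted p = 0.291 and 0.290 by edgeR). Of the genes given as values, G0s2 passed at day 2 with no filter (edgeR adjusted p = 0.0273), and under the alternatives that keep both day 14 libraries Ifitm1 passed in 15 and 9 of 17 (against sham and day 2), Retnlg in 9 and 12 of 17, Ctsb in 5 and 3 of 16, Tspo in 12 of 17 (against sham) and Wfdc21 in 8 of 17 (against day 2). The median over all genes against sham was -1.71 with no filter.

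The interaction with Neu2 at day 14 (11 genes) gave 0 with library size alone, 17 with counts rounded up and 12 to 18 leaving out 1 library; at day 2 it gave 0 to 5 (5 without sham replicate 3). With Neu3, day 2 gave 3 with library size alone and 0 to 4 leaving out 1 library; day 14 gave 2 with no filter, 2 with library size alone, 1 with counts rounded up and 0 to 4 leaving out 1. Genes higher in Neu1 than Neu3 in every library (33) were 138 and those lower (28) were 94 with cells of at least 500 counts, and 39 to 54 and 38 to 46 leaving out 1 library.

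The share differences at day 14 were -8.73 points against sham and -22.4 against day 2 over all leukocytes. The difference at day 2 lay between 11.4 and 21.6 points over all alternatives.

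With the replicate number as a block, 6 genes were called at day 2 (Dgat2 and Jaml among them, adjusted p = 0.019 and 0.0441 by edgeR), 6 at day 14 against sham and 5 against day 2. The share difference at day 2 kept 17.3 points (exact sign-flip p = 0.125). That p is the smallest this sign-flip test allows, and the share was higher at day 2 than in sham for each replicate number. Deviations of same-numbered sham and day 2 libraries correlated at 0.35, 0.15, -0.13 and 0.07. The value of 0.35 was the highest among all pairs of fitted libraries from different groups. So few values cannot decide whether the numbers pair the libraries, and the fit without a block was kept as the main one. Cells of at least 500 counts left too few day 14 libraries for a fit, and no technical batch is named in the metadata, so these alternatives were not run there. The interaction with Neu2 at day 14 could not be fitted without day 14 replicate 2.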
